A study of Rattus norvegicus with 26 samples.

Results

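The genes described here are the regulators of the oligodendrocyte lineage and the markers of its precursor cells: Olig1, Olig2, Sox10, Nkx2-2, Myrf, Zfp488, Pdgfra, Cspg4, Bcas1 and Gpr17. Their probe sets were found by the annotated symbol on the Affymetrix rat array. The rule itself uses no measured value, but the genes were picked with earlier results of these data known. Of these 10 genes, 9 had a probe set with that symbol, out of 14217 genes with a single annotated symbol in the series. Gpr17, a receptor of precursors on the point of differentiating, had none and was not analysed here.

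Levels were measured in primary cultures made from the cerebral cortex of postnatal day 1 rat pups. There were 4 arrays each of neuron, astrocyte, oligodendrocyte and microglial cultures, numbered 1 to 4 within a culture, and 10 arrays of RNA mixtures. No genotype, drug or strain was given for any group. Neuronal RNA made up 0.25 of NA1, 0.5 of NA2 and 0.75 of NA3, and astrocyte RNA the rest. NAO held 0.5 neuronal, 0.25 astrocyte and 0.25 oligodendrocyte RNA, and NAOM held 0.5, 0.2, 0.2 and 0.1 of neuronal, astrocyte, oligodendrocyte and microglial RNA. Each mixture had 2 arrays: replicate 1 was mixed from neuron 1, astrocyte 1, oligodendrocyte 2 and microglia 2, and replicate 2 from neuron 2, astrocyte 4, oligodendrocyte 4 and microglia 3. The description of microglial array 4 reads as a mixture whereas its title and cell type give a microglial culture. No postnatal day was recorded for this array. It was kept as a culture, and results that changed without it are given.

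Values are log2 expression levels after array normalization, in which 1 unit is a doubling. The median array level was 5.25 to 5.31 for culture arrays and 5.33 to 5.41 for mixture arrays, and arrays of the same culture correlated at 0.942 to 0.995 over all probe sets. The labels do not say that replicate arrays came from separate cultures, so p-values measure only the spread between these arrays, which may be technical. The number of arrays, 4 per culture and 2 per mixture, limits the precision. The oligodendrocyte arrays carried their own label's genes together with those of other cells. The 17 measured genes of myelin and mature oligodendrocytes averaged 7.67 to 9.66 there, the 15 microglial markers averaged 8.43 to 9.56, and the 11 astrocyte markers averaged 6.91 to 8.69.

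Oligodendrocytes arise from precursor cells that carry the PDGF receptor alpha and the NG2 proteoglycan (the product of Cspg4) and divide in response to PDGF. Olig2 and Sox10 specify and maintain the lineage, Olig1 and Nkx2-2 take part in differentiation, and Myrf switches on myelin genes in cells leaving the precursor state. Bcas1 marks oligodendrocytes in early myelination, and Zfp488 is a zinc finger repressor that works with Olig2.

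Promoter sequence stood in the reference table for 6 of the 10 genes: Olig2, Nkx2-2, Zfp488, Pdgfra, Cspg4 and Gpr17. The 250 bases before the start are shown for the gene that varied most among the oligodendrocyte arrays (Olig2), the gene with the largest step between oligodendrocyte and microglial cultures (Zfp488) and the precursor receptor (Pdgfra). They are RefSeq sequences of the build GRCr8, written 5′ to 3′ on the gene's strand, and capitals mark a match to the E-box CANNTG, the class of site that OLIG proteins bind. The starts used for Pdgfra and, among the windows not shown, for Nkx2-2 are not the outer ends of those genes.
Olig2, chr11:43961335-43961584, plus strand: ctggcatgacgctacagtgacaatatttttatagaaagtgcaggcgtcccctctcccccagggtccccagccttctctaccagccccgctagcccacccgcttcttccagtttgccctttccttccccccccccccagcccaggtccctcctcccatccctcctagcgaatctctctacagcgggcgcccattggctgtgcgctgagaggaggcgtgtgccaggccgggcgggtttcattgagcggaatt
Zfp488, chr16:9299929-9300178, minus strand: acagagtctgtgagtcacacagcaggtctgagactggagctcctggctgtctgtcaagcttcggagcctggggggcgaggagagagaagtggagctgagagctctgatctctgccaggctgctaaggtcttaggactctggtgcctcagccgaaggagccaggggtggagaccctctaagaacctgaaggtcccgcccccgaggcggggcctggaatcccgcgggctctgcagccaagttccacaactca
Pdgfra, chr14:33408517-33408766, minus strand: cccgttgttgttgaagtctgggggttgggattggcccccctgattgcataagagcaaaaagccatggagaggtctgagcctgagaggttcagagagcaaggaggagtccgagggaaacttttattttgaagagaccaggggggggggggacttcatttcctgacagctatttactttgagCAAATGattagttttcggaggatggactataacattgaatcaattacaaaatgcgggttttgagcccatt
The windows of 300 bases, which add the first 50 bases after the start, were searched on both strands for CANNTG, for its special case CAGCTG, and for the SOX-type words ACAAAG and AACAAT. Pdgfra held 1 CANNTG match and the other 5 windows held none, whereas 72.1% of 33469 rat promoters in the table held at least 1. The words CAGCTG (15.1% of promoters), ACAAAG (18.8%) and AACAAT (11.7%) were in none of the 6 windows. A match is a description of the letters, and an absent one says only that these letters are not in this window.

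The oligodendrocyte cultures had the highest level of 8 of the 9 measured genes by the test against each other culture, and Cspg4 was the exception. Against neuron cultures 9 of 9 were called higher, where 10.6% of all 31042 probe sets were called higher, with a median difference of 5.75 against 0.02 over all probe sets. Against astrocyte cultures 8 of 9 were called higher (7.85% of all probe sets), with a median of 5.22 against 0.01. Against microglial cultures 8 of 9 were called higher (6.27% of all probe sets), but the median was smaller, 2.08 against -0.07. A gene was called at a limma adjusted p under 0.05 and a log2 difference of at least 1. Of all probe sets, 1.47% passed against all 3 other cultures, and these 3 comparisons share the oligodendrocyte arrays. The oligodendrocyte arrays lay above every microglial array for 7 of the 9 genes (13.1% of all probe sets). In bulk cultures, fewer cells of a type and less RNA per cell cannot be told apart.

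**Figure D1:**
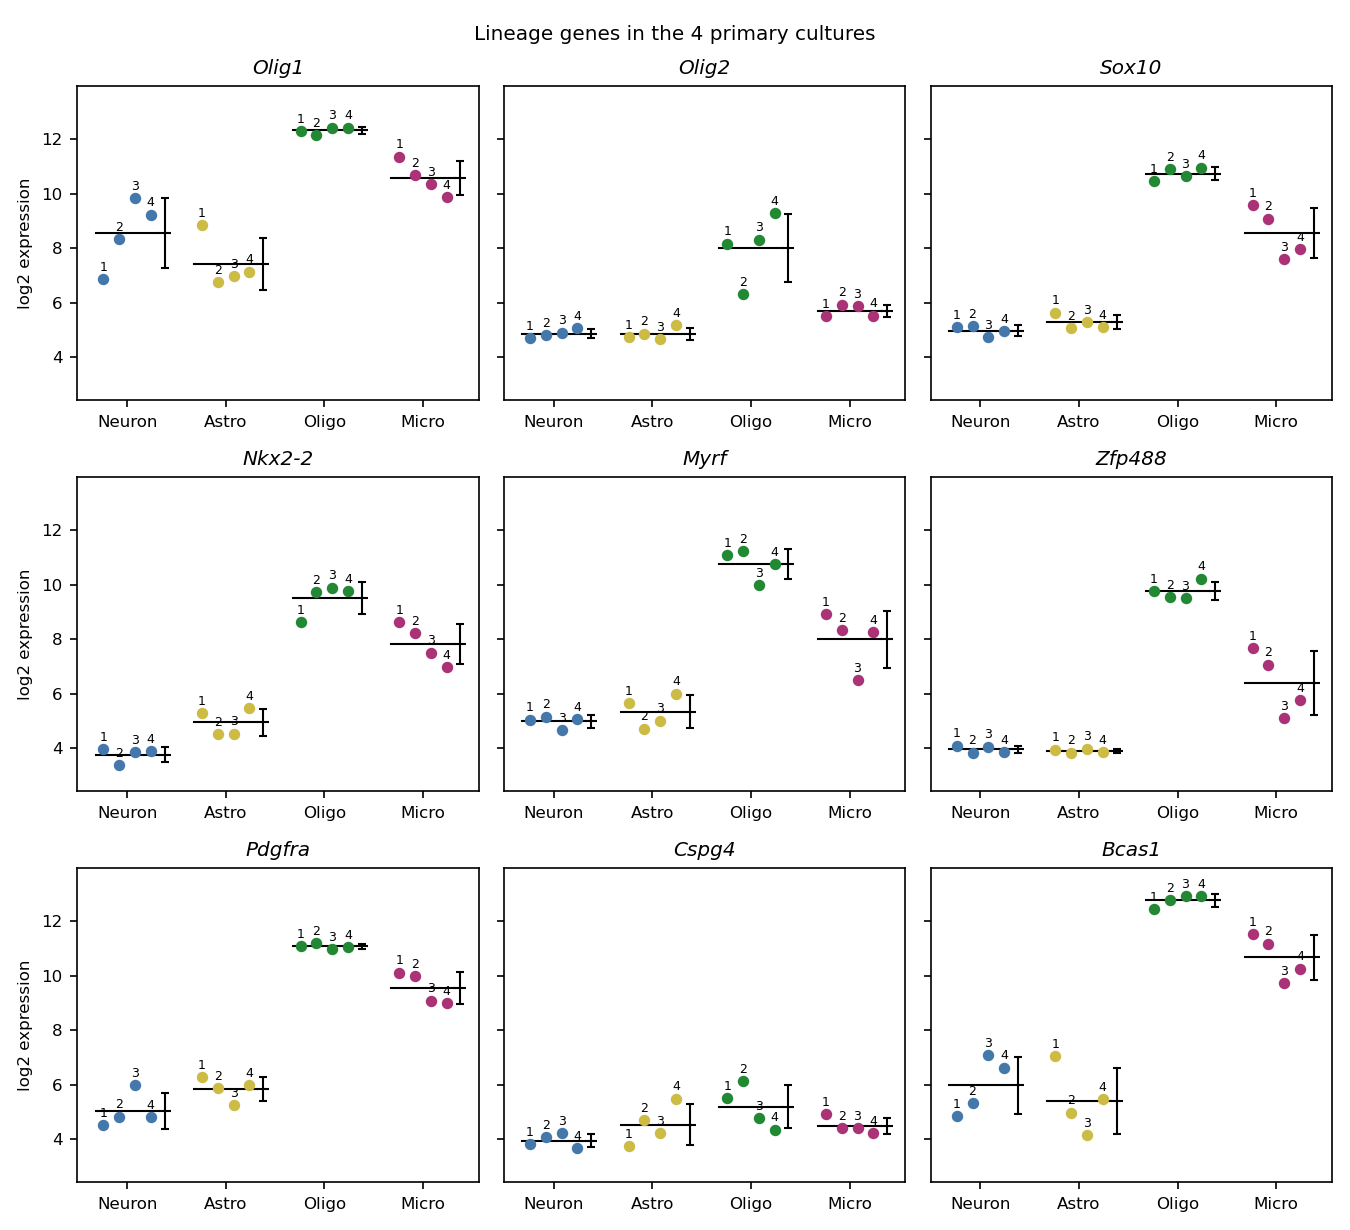
Log2 level of the 9 measured genes (a panel each) in every culture array, with numbered points for arrays, a line for the mean of 4 and a bar beside it for the SD. In every panel but that of Cspg4 the oligodendrocyte arrays stand above those of neurons and astrocytes, and the microglial means lie between.

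Among the transcription factors, Sox10, the HMG-box factor of the whole lineage, read 10.45, 10.89, 10.65 and 10.95 in the oligodendrocyte arrays and 9.58, 9.09, 7.61 and 7.96 in the microglial arrays. Neuron arrays read 5.11, 5.14, 4.74 and 4.96 and astrocyte arrays 5.64, 5.08, 5.29 and 5.11. The oligodendrocyte arrays lay above all others without overlap, the microglial arrays came next, and the neuron and astrocyte arrays overlapped. The oligodendrocyte level was 53.8-fold that of neurons (log2 difference 5.75 ± 0.33, SE, limma adjusted p = 1.5e-09), 43.9-fold that of astrocytes and 4.52-fold that of microglial cultures (2.18 ± 0.33, limma adjusted p = 0.000167).

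Myrf, the myelin gene regulator, read 11.07, 11.24, 9.97 and 10.76 in oligodendrocyte arrays and 8.91, 8.34, 6.50 and 8.27 in microglial arrays. Neuron arrays lay between 4.66 and 5.17 and astrocyte arrays between 4.73 and 6.01, and these overlapped. Oligodendrocyte 3 was the lowest of its group and microglia 3 the lowest of its own. Myrf was 54.7-fold higher in oligodendrocyte than in neuron cultures (5.77 ± 0.43, limma adjusted p = 2.87e-08) and 6.75-fold higher than in microglial cultures (2.76 ± 0.43, limma adjusted p = 0.000238).

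Zfp488 read 9.76, 9.54, 9.52 and 10.21 in oligodendrocyte arrays and 7.67, 7.06, 5.11 and 5.78 in microglial arrays. The neuron and astrocyte arrays all read between 3.85 and 4.10, the narrowest span of the 9 genes in those cultures. The lowest oligodendrocyte array, 9.52, stood above the highest microglial array, 7.67. The differences were 5.79 ± 0.39 from neurons (55.4-fold, limma adjusted p = 1.04e-08), 5.85 ± 0.39 from astrocytes (57.5-fold) and 3.35 ± 0.39 from microglial cultures (10.2-fold, limma adjusted p = 1.98e-05). The last was the largest of the 9 steps between oligodendrocyte and microglial cultures.

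Nkx2-2, a homeodomain factor of precursors and differentiating cells, read 8.62, 9.73, 9.89 and 9.77 in oligodendrocyte arrays and 8.63, 8.21, 7.51 and 6.97 in microglial arrays. Oligodendrocyte 1 was level with microglia 1, so the groups overlapped, and the difference was 1.67 ± 0.36 (limma adjusted p = 0.00258). Against neurons it was 52.9-fold (5.72 ± 0.36, limma adjusted p = 3.93e-09) and against astrocytes 23.3-fold (4.54 ± 0.36). Nkx2-2 was the single gene of the 9 called between astrocytes and neurons, where 24% of all probe sets were called in either direction. It read 5.29, 4.52, 4.55 and 5.48 in astrocyte arrays and 3.97, 3.38, 3.85 and 3.90 in neuron arrays, without overlap (1.18 ± 0.36 higher in astrocytes, limma adjusted p = 0.0125). With arrays weighted by their quality the difference was 0.92, under the minimum of 1.

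Olig2, the basic helix-loop-helix factor that specifies the lineage, read 8.17, 6.31, 8.31 and 9.28 in the oligodendrocyte arrays. Microglial arrays read 5.51, 5.94, 5.87 and 5.53, and neuron and astrocyte arrays lay between 4.66 and 5.17. Oligodendrocyte 2 stood just above the microglial arrays and well below the other 3 of its group, with no overlap. The differences were 3.14 ± 0.41 from neurons (8.83-fold, limma adjusted p = 1.32e-05), 3.16 ± 0.41 from astrocytes (8.95-fold) and 2.31 ± 0.41 from microglial cultures (4.94-fold, limma adjusted p = 0.000719). A second Olig2 probe set disagreed: it read 4.68, 4.95, 5.08 and 4.68 in oligodendrocyte arrays and 5.09, 5.09, 5.13 and 4.84 in microglial arrays. That probe set stayed below the array medians in these cultures, and its differences from astrocytes and microglial cultures were -0.021 and -0.19, so the Olig2 differences rest on 1 of 2 probe sets.

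Olig1, the paralogue of Olig2, lies next to it in the rat annotation (GRCr8) with 0 protein-coding genes between them. It read 12.29, 12.15, 12.41 and 12.42 in oligodendrocyte arrays and 11.36, 10.67, 10.35 and 9.88 in microglial arrays. Neuron arrays read 6.85, 8.32, 9.83 and 9.23 and astrocyte arrays 8.84, 6.75, 6.97 and 7.14. The oligodendrocyte arrays were tight and highest, neuron 3 came close to microglia 4, and neuron and astrocyte arrays overlapped. Olig1 was 13.5-fold higher in oligodendrocyte than in neuron cultures (3.76 ± 0.55, limma adjusted p = 4.07e-05), 29.7-fold higher than in astrocytes and 3.37-fold higher than in microglial cultures (1.75 ± 0.55, limma adjusted p = 0.0281). The last call was lost without oligodendrocyte array 1, 3 or 4 or microglial array 3 or 4 (limma adjusted p 0.0536 to 0.085). Between astrocytes and neurons it was not called (-1.14 ± 0.55, limma adjusted p = 0.115), but it was called lower in astrocytes without neuron 1 (-1.70), without astrocyte 1 (-1.61) or with array weights (-1.64).

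Of the surface molecules, Pdgfra, the receptor through which PDGF drives precursor division, read 11.08, 11.18, 10.98 and 11.03 in oligodendrocyte arrays, the smallest spread of the 9 genes in that culture (SD 0.09). Microglial arrays read 10.10, 9.99, 9.08 and 8.99, astrocyte arrays 6.27, 5.88, 5.25 and 5.98, and neuron arrays 4.52, 4.83, 6.0 and 4.81. Oligodendrocyte and microglial arrays each formed a level of their own, and astrocyte and neuron arrays overlapped. The difference of astrocytes from neurons was not called (0.81 ± 0.32, limma adjusted p = 0.0516). It was called higher in astrocytes without neuron 3 (1.13) or without astrocyte 3 (1.01). The oligodendrocyte level was 65.3-fold that of neurons (6.03 ± 0.32, limma adjusted p = 7.13e-10), 37.4-fold that of astrocytes (5.22 ± 0.32) and 2.88-fold that of microglial cultures (1.53 ± 0.32, limma adjusted p = 0.00218). Pdgfra is also expressed by fibroblasts. The other 11 genes of a fibroblast list averaged 4.51 to 5.51 in the oligodendrocyte arrays and 4.33 to 4.78 in the microglial arrays, against 6.22 to 7.85 in the astrocyte arrays, where Pdgfra read 5.25 to 6.27. The part of fibroblasts in the Pdgfra level was not tested.

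Cspg4, the gene of the NG2 proteoglycan of precursors and pericytes, did not follow the others. It read 5.51, 6.14, 4.79 and 4.36 in oligodendrocyte arrays, 4.93, 4.42, 4.42 and 4.22 in microglial arrays, 3.76, 4.71, 4.22 and 5.49 in astrocyte arrays and 3.83, 4.08, 4.23 and 3.69 in neuron arrays. Its oligodendrocyte mean, 5.20 ± 0.79 (SD, n = 4), lay below the array medians, the single case among the 9 genes. It was called higher in oligodendrocyte than in neuron cultures (2.36-fold, 1.24 ± 0.37, limma adjusted p = 0.0126), a difference of 0.93 without oligodendrocyte 2 and then under the minimum of 1. Against astrocytes the difference was 0.65 (95% interval -0.13 to 1.44) and against microglial cultures 0.70 (-0.09 to 1.49), and neither was called. The highest astrocyte array for Cspg4, astrocyte 4, was also the highest for the other 11 genes of a pericyte list (7.50, against 6.50 to 6.92 in the other 3) and for the fibroblast list (7.85, against 6.22 to 6.33). On oligodendrocyte 1 to 4, where Cspg4 read 5.51, 6.14, 4.79 and 4.36, the pericyte list averaged 5.65, 5.33, 4.95 and 5.50. The fibroblast list averaged 5.27, 4.51, 4.66 and 5.51 on the same arrays. The part of pericytes and fibroblasts in the Cspg4 level was not tested.

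Bcas1, the gene of early myelinating cells, read 12.44, 12.77, 12.92 and 12.91 in oligodendrocyte arrays and 11.53, 11.17, 9.73 and 10.26 in microglial arrays. Neuron arrays read 4.86, 5.32, 7.10 and 6.63 and astrocyte arrays 7.06, 4.98, 4.16 and 5.46, with wide overlap. Its differences from neurons, 6.78 ± 0.58 (110-fold, limma adjusted p = 1.33e-07), and from astrocytes, 7.34 ± 0.58 (162-fold, limma adjusted p = 1.38e-07), were the largest of the 9 genes. Against microglial cultures the difference was 2.08 ± 0.58 (4.24-fold, limma adjusted p = 0.0148), and it was not called without microglia 3 (limma adjusted p = 0.0553).

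**Figure D2:**
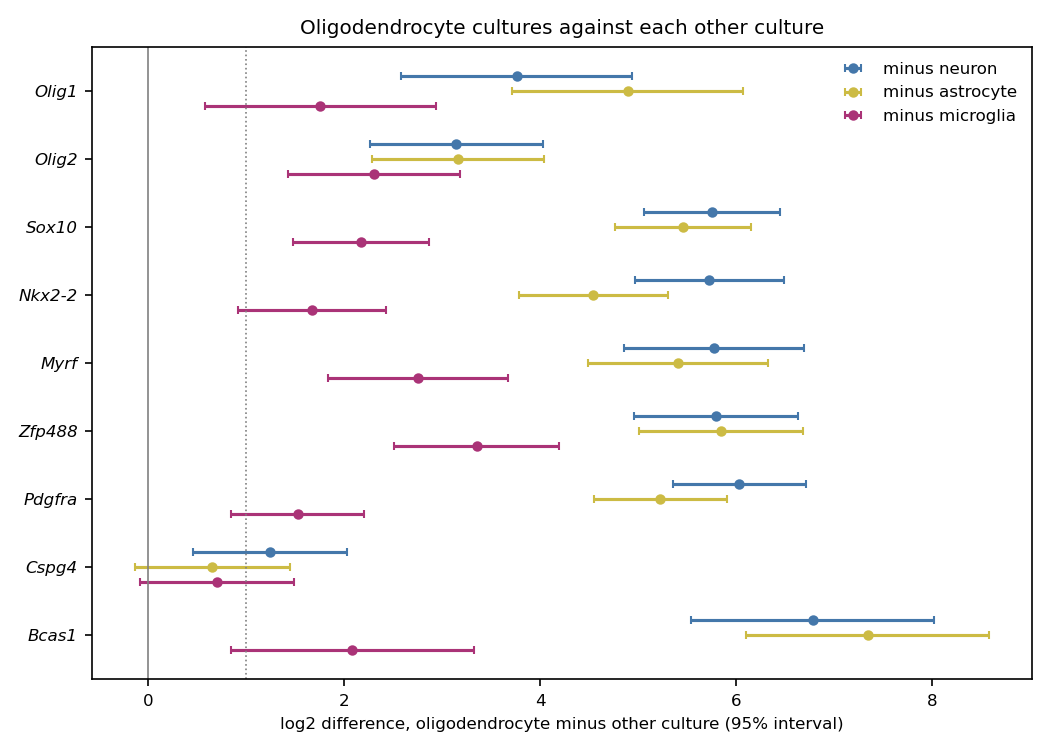
Log2 difference of the oligodendrocyte mean from the neuron, astrocyte and microglial means for each of the 9 genes, with 95% intervals from limma and a dotted line at the minimum difference of 1. The differences from microglial cultures run from 0.70 for Cspg4 to 3.35 for Zfp488, and for each gene but Cspg4 they are smaller than those from neurons and astrocytes.

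Where a culture's mean lay below the array medians, as it did for 7 of the 9 genes in neurons and 4 in astrocytes, background makes up more of the value and a fold may understate the change. Arrays that read high for Olig1 and Bcas1 in the neuron cultures were neuron 3 and neuron 4. The 11 astrocyte markers averaged 9.36 and 9.15 on them against 7.25 and 7.96 on neuron 1 and neuron 2. The 17 myelin and mature genes averaged 4.89, 4.86, 4.90 and 4.81 on neuron 1 to neuron 4. A list of 18 other precursor markers averaged 6.15, 6.27, 6.35 and 6.42 on the same arrays. For Olig1 the astrocyte arrays themselves read 6.75 to 8.84, below the 9.83 and 9.23 of neuron 3 and neuron 4. For Bcas1 they read 4.16 to 7.06, against 7.10 and 6.63. Of the other genes, Pdgfra read highest on neuron 3 (6.0, against 4.52 to 4.83 on the other 3), and Sox10 read 4.74 and 4.96 on neuron 3 and neuron 4. In the astrocyte cultures the array that read high for Olig1 and Bcas1 was astrocyte 1. On it the 17 myelin and mature genes averaged 6.44 against 5.44 to 5.93 on the other 3, and the 11 astrocyte markers 10.98 against 10.02 to 10.75. The part of other cells in these levels was not tested.

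The microglial cultures held most of these genes well above neurons and astrocytes. Against neurons 7 of 9 were called higher (11.6% of all probe sets), with a median difference of 3.02 against 0.10, and against astrocytes 7 of 9 (7.05% of all probe sets), with a median of 2.87 against 0.08. The largest differences from neurons were those of Bcas1 (4.70, 25.9-fold, limma adjusted p = 5.19e-06) and Pdgfra (4.50, 22.7-fold, limma adjusted p = 9.7e-09). Olig2 (0.84 and 0.86) and Cspg4 (0.54 and -0.05) were called against neither. These differences were under the minimum of 1, so none could be called whatever the spread. For Olig2 the microglial arrays read 5.51 to 5.94 and the neuron and astrocyte arrays 4.66 to 5.17. The limma adjusted p of these Olig2 differences, 0.105 and 0.117, rests on a single estimate of the spread shared over all cultures. The Olig2 SD was 1.24 in the oligodendrocyte arrays, against 0.16 in neuron, 0.23 in astrocyte and 0.22 in microglial arrays. A graded pattern, with the oligodendrocyte level above each other culture and the microglial level above neurons and astrocytes, was called for 7 of 9 genes and for 0.2% of all probe sets. The gene with the first part of that pattern but not the second was Olig2. The graded count was 6 without oligodendrocyte 1, 3 or 4 or microglia 4, and 5 without microglia 3.

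Expressed as a percentage of the mean linear level of the oligodendrocyte arrays, microglia 1 held 51.9% for Nkx2-2, 51.3% for Olig1, 51.2% for Pdgfra, 44.5% for Sox10, 42.3% for Bcas1, 26.4% for Myrf, 23.1% for Zfp488 and 14.0% for Olig2. Microglia 3 held 23.7%, 25.5%, 25.1%, 11.3%, 12.2%, 5.0%, 3.9% and 17.9% in the same order. Microglia 1 was thus the highest of its group for 8 of 9 genes, with Olig2 the exception. The lowest was microglia 3 for Sox10, Myrf, Zfp488 and Bcas1 and microglia 4 for Olig1, Nkx2-2, Pdgfra and Cspg4. On the same arrays the 17 myelin and mature genes averaged 7.38, 7.31, 6.30 and 6.84 for microglia 1 to 4, while the 15 microglial markers averaged 10.76, 11.15, 11.27 and 11.37.

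**Figure D3:**
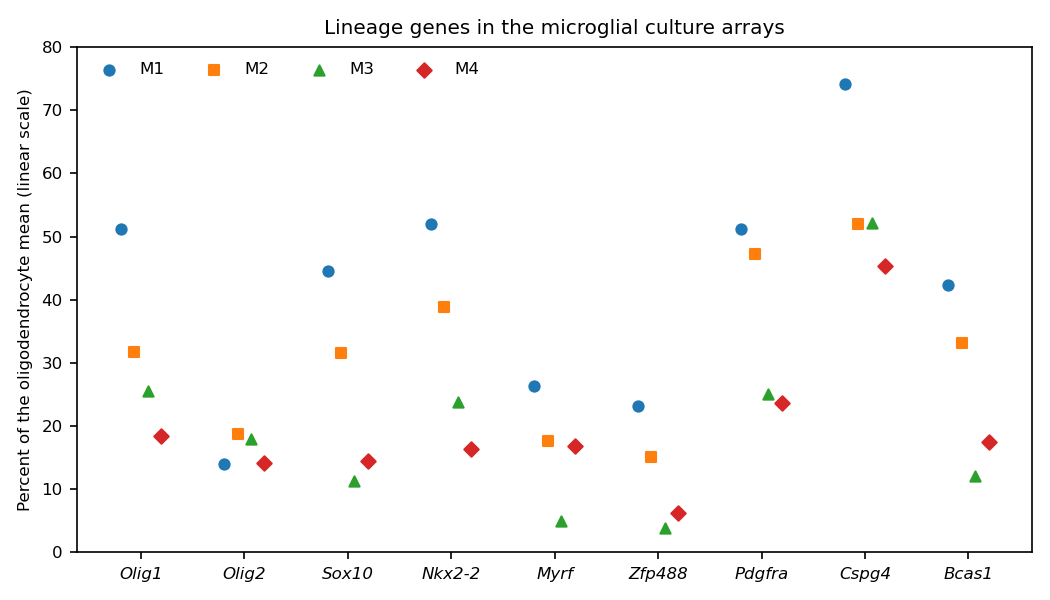
Level of each gene in the 4 microglial arrays as a percentage of the mean linear oligodendrocyte level, with a symbol for each array (M1 to M4). Zfp488 runs from 3.9% to 23.1% and Pdgfra from 23.7% to 51.2%.

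Whether the step from oligodendrocyte to microglial cultures differed between genes was compared for the 28 pairs of the 8 genes called in that contrast, a comparison chosen after the values were seen. Zfp488 had a larger step than Pdgfra by 1.82, Nkx2-2 by 1.68, Olig1 by 1.60, Bcas1 by 1.27 and Sox10 by 1.17. Each of these 5 pairs reached 0.0286 in a two-sided exact permutation test, the smallest p that 4 arrays against 4 allow. All 5 share Zfp488, the gene with the largest step, so they are not 5 separate results. The 8 genes were also admitted by a call on the same arrays and contrast, so these p-values are a description only. After Benjamini-Hochberg adjustment over the 28 pairs the smallest p of the exact permutation test was 0.16. With 4 arrays a group and 28 pairs, this adjustment leaves little room for a pair to pass, so it does not show that the steps were alike. Probe sets can also differ in how strongly they respond to the same change.

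Microglial markers stood high in the oligodendrocyte cultures too. Against neurons 14 of 15 such markers were called higher in oligodendrocyte cultures, and 11 of 15 were called lower there than in microglial cultures. Their summed linear level ran from 11570 to 21943 in oligodendrocyte arrays, 49420 to 63282 in microglial arrays, 414 to 499.8 in neuron arrays and 550.1 to 1948 in astrocyte arrays. P2ry12, a purine receptor of resting microglia, averaged 6.17 in oligodendrocyte and 9.83 in microglial cultures (-3.66 ± 0.23, limma adjusted p = 8.94e-08), and Trem2, a lipid-sensing microglial receptor, averaged 7.82 and 11.68. Fcer1g, an Fc receptor chain, averaged 12.27 in oligodendrocyte cultures. Markers of endothelial cells (7 measured, averaging 3.79 to 3.89) lay below the array medians in the oligodendrocyte arrays, and those of Schwann cells (7 besides Sox10) averaged 5.69 to 6.61, against 6.80 to 6.99 in astrocyte arrays. The 14 neuron markers averaged 5.45 to 6.30 in oligodendrocyte arrays and 10.49 to 10.69 in neuron arrays. Of the 11 astrocyte markers, 8 were called lower in oligodendrocyte than in astrocyte cultures and 4 higher than in microglial cultures. The part of other cells in the levels of the 9 genes was not tested.

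The single oligodendrocyte arrays differed little for some of the 9 genes and much for others. Pdgfra, Olig1, Sox10 and Bcas1 stayed within 0.32 of their mean on each of the 4 arrays. Olig2 departed from its mean by 0.15, -1.70, 0.29 and 1.26 on arrays 1 to 4, a span of 2.97 and the widest of the 9. Cspg4 ran the other way on arrays 2 and 4 (0.94 and -0.84), Myrf was lowest on array 3 (-0.79), and Nkx2-2 was lowest on array 1 (-0.88). With the 2 Olig2 probe sets averaged the span was 1.34.

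**Figure D4:**
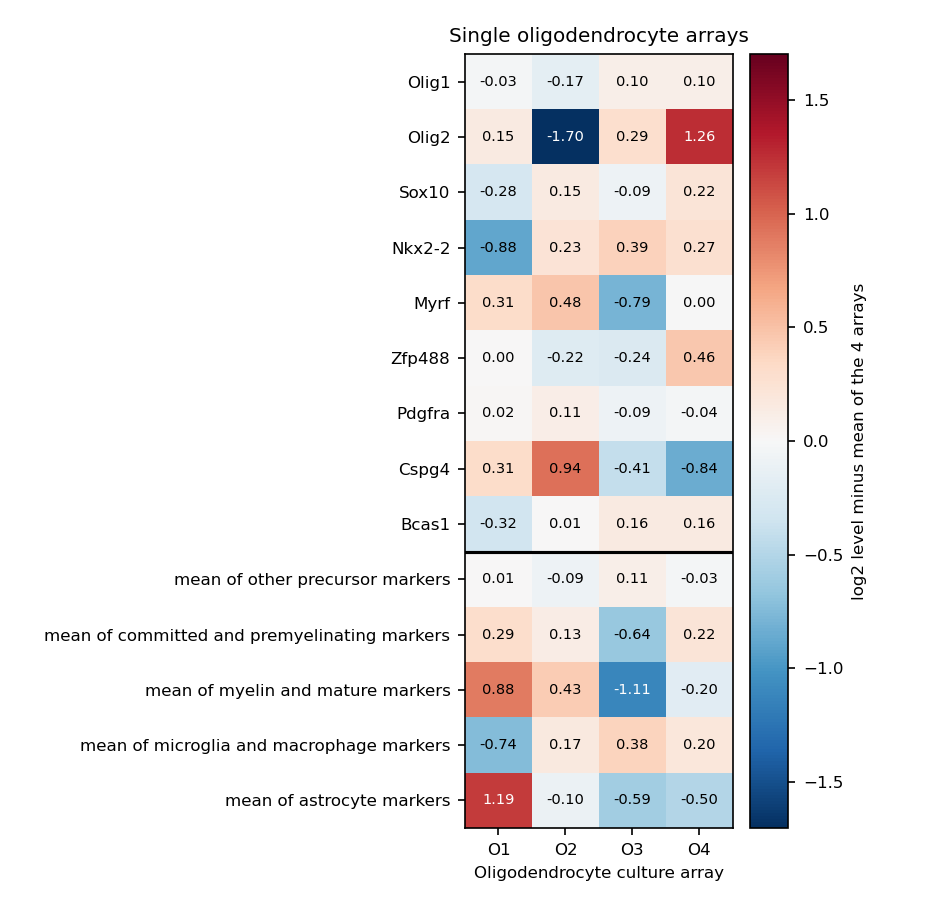
Departure of each gene (rows above the line) and of 5 gene list means (below it) from the mean over the 4 oligodendrocyte arrays O1 to O4, in log2 units given by colour and number. Olig2 spans 2.97, from -1.70 on array 2 to 1.26 on array 4, and Pdgfra stays between -0.09 and 0.11.

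The wider gene lists also differed in how much they varied over these 4 arrays. The 18 other precursor markers averaged 7.90, 7.80, 7.99 and 7.85 on the 4 arrays, a mean over many genes that single members need not follow. The 19 genes of committed cells averaged 10.10, 9.93, 9.16 and 10.03, and the 17 myelin and mature genes averaged 9.66, 9.20, 7.67 and 8.58, both lowest on array 3, as was Myrf. Mobp, a myelin protein gene, ran from 4.50 to 10.82. Array 1, lowest for Nkx2-2, was the highest for the 11 astrocyte markers (8.69, against 6.91 to 7.41) and the lowest for the 15 microglial markers (8.43, against 9.34 to 9.56). The part of these shifts in the levels of the 9 genes was not tested.

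The other genes of the lineage were counted from lists of named genes. Of all probe sets, 11% were called lower in oligodendrocyte than in neuron cultures, 8.04% than in astrocyte and 4.29% than in microglial cultures, beside the shares called higher given above. Of 19 genes of committed oligodendrocytes, 14 were called higher in oligodendrocyte than in neuron cultures, 15 than in astrocyte and 14 than in microglial cultures, and none lower. Of 17 myelin and mature genes 13, 13 and 10 were called higher and 0, 1 and 0 lower. Among these myelin and mature genes, Ugt8, which makes the myelin lipid galactosylceramide, averaged 10.29 in oligodendrocyte and 7.07 in microglial cultures (3.22 ± 0.54, limma adjusted p = 0.00043). Fa2h, a fatty acid hydroxylase of myelin lipids, averaged 9.87 and 6.97 in the oligodendrocyte and microglial cultures (2.90 ± 0.18, limma adjusted p = 8.94e-08). Of 18 other precursor markers 10, 10 and 11 were called higher and 1, 1 and 0 lower. Among them Lhfpl3 averaged 10.30 and 7.87 (2.43 ± 0.67, limma adjusted p = 0.0139), Tnr, a matrix glycoprotein, 8.47 and 6.03, and Cntn1, an adhesion molecule shared with neurons, 9.17 and 6.23 (2.94 ± 0.21, limma adjusted p = 2.11e-07). The median differences from microglial cultures were 1.92 for the committed, 1.99 for the myelin and mature and 1.5 for the other precursor genes, against -0.07 over all probe sets.

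Of 26 listed partners of these factors, 22 were measured. In oligodendrocyte cultures 7 were called higher and 2 lower than in neuron cultures (10.6% and 11% of all probe sets). Against astrocytes 7 were called higher and 4 lower (7.85% and 8.04% of all probe sets). Against microglial cultures 4 were called higher and 1 lower (6.27% and 4.29% of all probe sets). Tcf7l2, a Wnt pathway factor of differentiating cells, averaged 10.60 in oligodendrocyte and 8.42 in microglial cultures (2.19 ± 0.29, limma adjusted p = 6.57e-05). Sox6, which holds precursors undifferentiated, averaged 9.10 and 7.53 (1.57 ± 0.29, limma adjusted p = 0.000949), and Zfp536, a zinc finger repressor, 7.68 and 5.81. The median differences of the partners were 0.29 from neurons, 0.34 from astrocytes and 0.39 from microglial cultures. Over all probe sets they were 0.02, 0.01 and -0.07. Id2, an inhibitor of helix-loop-helix factors, was the partner called lower in oligodendrocyte than in microglial cultures, 10.61 against 11.83 (-1.22 ± 0.25, limma adjusted p = 0.00174).

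Along the PDGF pathway, 10 of 11 listed genes besides Pdgfra were measured. In oligodendrocyte cultures 2 were called higher and 0 lower against neurons (10.6% and 11% of all probe sets). Against astrocytes 0 were called higher and 3 lower (7.85% and 8.04% of all probe sets). Against microglial cultures 2 were called higher and 1 lower (6.27% and 4.29% of all probe sets). The medians were 0.32, -0.46 and -0.05. Pdgfa, a ligand of the receptor, averaged 7.46 in neuron, 7.44 in astrocyte, 8.08 in oligodendrocyte and 6.33 in microglial cultures (1.75 ± 0.42 above microglial, limma adjusted p = 0.00573). Ptpn11, a phosphatase that passes on the receptor's signal, averaged 10.78 and 9.50 in oligodendrocyte and microglial cultures (1.28 ± 0.22, limma adjusted p = 0.000576). Shc1, an adaptor, was lower in oligodendrocyte than in microglial cultures (8.48 against 9.56, limma adjusted p = 0.00518).

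The genes whose pattern over the 16 culture arrays was most like each of the 9 were found by Pearson correlation over all single-symbol genes. Since the arrays form 4 cultures, these correlations mostly reflect culture means and are given as a description. Sox10 was nearest to Gal3st1, the sulfatide synthase (r = 0.991), then Pnlip and Pllp. Zfp488 was nearest to Sema3d (0.995), Tspan2 (0.984) and Inava (0.979), and Myrf to Pnlip (0.983), Pllp (0.981) and Tspan2 (0.981). Pdgfra was nearest to Tesk2 (0.984), Tbrg4 (0.981) and Gal3st1 (0.979), and Nkx2-2 to Pmel (0.976), Znf740 and Tesk2. Olig1 and Bcas1 shared their nearest gene, Cpsf2 (0.963 and 0.980), followed by Myt1 and Hnrnpdl for Olig1 and Gal3st1 and Rchy1 for Bcas1. Olig2 had less close neighbours, LOC102551819 (0.939), Il10 and Eif2b1, and Cspg4 the least close, Ptprcap (0.905), Rbp2 and Col27a1.

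In the mixtures, 8 of the 9 genes were higher in NAO, with oligodendrocyte RNA, than in NA2, which has the same neuronal fraction and none (0.902% of all probe sets were called higher). No minimum difference was set for the mixtures. The median difference was 3.51 against -0.02 over all probe sets. Pdgfra read 8.98 and 9.23 in NAO and 5.28 and 5.09 in NA2 (3.92 ± 0.15, limma adjusted p = 4.47e-05), and Myrf read 9.10 and 9.07 against 5.51 and 5.64 (3.51 ± 0.11, limma adjusted p = 4.47e-05). Sox10 read 8.67 and 9.06 against 5.36 and 5.09, Zfp488 7.24 and 7.95 against 3.76 and 3.94, and Bcas1 11.12 and 11.60 against 6.10 and 4.98. For each of these the NAO arrays stood clear of NA2.

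Olig1 read 10.80 and 11.01 in NAO and 8.11 and 7.87 in NA2 (2.91 ± 0.37, limma adjusted p = 0.0138), and Olig2 5.98 and 6.33 against 4.88 and 4.82 (1.30 ± 0.20, limma adjusted p = 0.0306). Neither call was firm. Leaving out any NA2 or NAO array ended that of Olig1 (limma adjusted p 0.0792 to 0.123), and leaving out any array of NA1, NA2, NA3 or NAO ended that of Olig2 (0.0531 to 0.223). With the lowest probe set Olig2 differed by 0.18. Nkx2-2 read 7.59 and 7.71 against 4.39 and 4.62 (3.14 ± 0.16, limma adjusted p = 0.000213). Cspg4 read 4.24 and 3.86 against 3.87 and 4.25, a difference of -0.01 that was not called. Without NAO replicate 2 the count of genes called fell to 5, since Bcas1 was also lost (limma adjusted p = 0.0533).

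The mixture levels were set against those expected from the parent cultures, taken as the sum of the parents' linear levels weighted by RNA fraction. Oligodendrocyte RNA was expected to supply 86.8% to 98.4% of the NAO signal for Olig1, Sox10, Nkx2-2, Myrf, Zfp488, Pdgfra and Bcas1. The observed difference of NAO from NA2 was 3.64 against an expected 3.74 for Sox10, 3.14 against 3.08 for Nkx2-2, 3.51 against 3.57 for Myrf, 3.74 against 4.01 for Zfp488 and 3.92 against 3.60 for Pdgfra. It was above expectation for Olig1 (2.91 against 2.48) and, by the widest gap of the 9 genes, for Bcas1 (5.83 against 5.00). Single NAO arrays lay between -0.39 and 0.67 of expectation for these 7 genes. The median departure was -0.31 over the 260 genes expected at least 2-fold higher in NAO than in NA2.

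The widest departures on single arrays were those of Olig2. Its parents differed, 6.31 in oligodendrocyte 2 and 9.28 in oligodendrocyte 4, so 5.31 was expected in NAO replicate 1 and 7.48 in replicate 2. The observed levels, 5.98 and 6.33, departed from expectation by 0.67 and -1.15, and the NAOM arrays departed by -0.12 and -1.53. The mixtures made from these parents differed far less than the parents did. Cspg4 departed by -0.58 and -0.77 in NAO and by -0.48 in each NAOM array, so its mean departure in NAO was wider than that of Olig2 (-0.68 against -0.24).

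**Figure D5:**
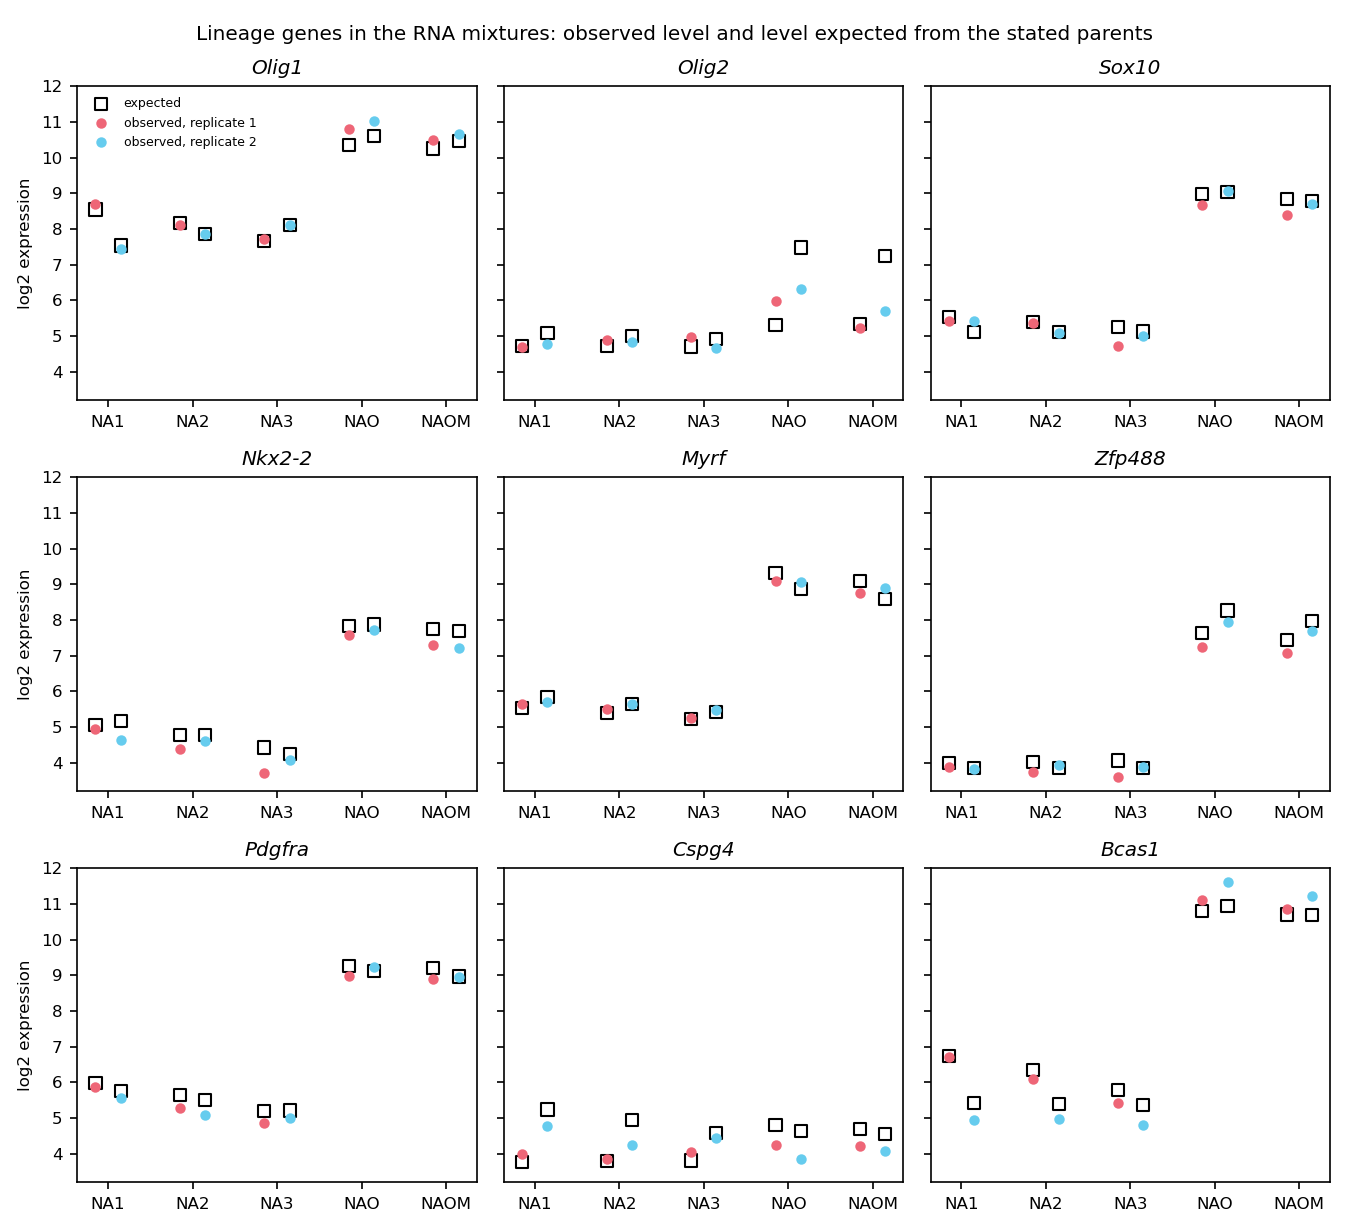
Log2 level of the 9 genes (a panel each) in the 2 arrays of each of the 5 mixtures, with points for observed levels by replicate and open squares for the level expected from the stated parents. In NAO and NAOM the departures run from -1.53 for Olig2 to 0.67 for Olig2 and Bcas1.

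Between NAOM and NAO, where the oligodendrocyte fraction falls from 0.25 to 0.2 and microglial RNA is added, none of the 9 genes was called by limma, and 0.0419% of all probe sets were called in either direction. Of the 9, 8 were lower in NAOM (median -0.32, with -0.14 expected), and 2 had an unadjusted limma p under 0.05. These were Olig2 (5.22 and 5.72 in NAOM, -0.69 ± 0.20) and Nkx2-2 (7.30 and 7.22, -0.39 ± 0.16). With the replicate number as a block, set by the shared parent RNA, none was called either.

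Over NA1, NA2 and NA3 the slope on the neuronal fraction was called for 2 of 9 genes, both lower with more neuronal RNA (5.01% of all probe sets were called lower). Pdgfra read 5.88 and 5.57 in NA1, 5.28 and 5.09 in NA2 and 4.86 and 5.01 in NA3, a slope of -1.57 ± 0.31 per unit of fraction (limma adjusted p = 0.0212). Nkx2-2 read 4.95 and 4.63, 4.39 and 4.62, and 3.72 and 4.09 (-1.77 ± 0.38, limma adjusted p = 0.0266). Both are low levels, near or below the array medians, and both calls were lost without NA1 replicate 1 or without either array of NA3, and that of Nkx2-2 also without NA2 replicate 1. Sox10 (-1.12 ± 0.29) was not called (limma adjusted p = 0.0529), but it was called with the replicate number as a block (limma adjusted p = 0.0364).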

How the data were processed

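The 26 arrays were single-channel Affymetrix rat arrays hybridised with biotin-labelled RNA. The deposited log2 values were made by the authors with RMA in the affy package, per the submitters' processing notes. Versions are not given in the sources used here. The 31099 probe sets (values 2.57 to 14.36) were used as deposited, and 57 control probe sets were left out. Of the 31042 tested, 20826 had 1 gene symbol, 436 several and 9780 none. A gene was represented by its probe set with the highest mean over all arrays.

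The 16 culture arrays and 10 mixture arrays were fitted separately by the lmFit and eBayes steps of limma 3.58.1 in R 4.3.3, with 1 mean per group, or a slope over the 6 arrays of NA1, NA2 and NA3. P-values were Benjamini-Hochberg adjusted over all 31042 probe sets. The threshold was 0.05, with a log2 difference of at least 1 between cultures and no minimum for mixtures. Fits were tested on simulated data. Named genes were the 9 measured members, per list at most the 3 largest and 3 smallest called differences between oligodendrocyte and microglial cultures and, for marker lists, the 3 highest in oligodendrocytes, and per member the 3 most correlated genes. The members and lists were chosen with earlier results of these data known.

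Mixture numbers mark shared parent RNA, per the labels. Deviations of same-numbered mixture arrays correlated at 0.381 to 0.873, so the replicate number pairs them. Mixture errors and p-values are from the fit without this block unless it is named, so their spread includes differences between the parents. Alternatives covered normalization, dim probe sets, variance models, array weights, probe set choice, the replicate block and leaving out each array.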

Additional observations from a re-analysis of the deposited data

Results flagged for a closer look

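Nkx2-2 on oligodendrocyte array 1 read 8.62, whereas the other 3 oligodendrocyte arrays read 9.73 to 9.89. The gap was 0.873 of the group's whole range, above Dixon's critical value for 4 arrays. Over the 36 groups of 4 arrays examined, this was the 1 that passed, and chance passes about 1 in 20.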

How the results depend on the processing

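2 results reversed: with the lowest probe set, the Olig2 difference of oligodendrocyte from astrocyte cultures became -0.021 and from microglial cultures -0.19. Leaving out single arrays moved the count called between astrocytes and neurons from 1 to as many as 2, the count higher in NAO than NA2 between 5 and 8, and the slope count between 0 and 2. The median departure of the mixtures from expectation, -0.16, became 2.01 when parents were mixed on the log2 scale, which weights high parents less. The counts of genes higher in oligodendrocyte cultures ran, over single arrays left out, from 8 to 9 against neurons, stayed at 8 against astrocytes, and ran from 6 to 8 against microglial cultures. With the replicate number as a block, the counts against neurons, astrocytes and microglial cultures were 9, 8 and 8, and in the mixtures 8 in NAO, 0 in NAOM and 3 for the slope, Sox10 being added. In the cultures same-numbered arrays did not deviate together (correlations from -0.107 to 0.178). With 4 arrays per culture and 2 per mixture, and most levels in neurons near background, small differences could not be resolved.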
